A study of Homo sapiens with 18 samples.

Results

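The transcriptional response of parental NCI-H460 cells to all-trans retinoic acid (ATRA) given together with decitabine (DAC) was measured by RNA sequencing in 6 of the 18 libraries of the series. NCI-H460 is an established adherent line derived from a large cell lung cancer, and its genotype is labelled WT. The comparison was chosen by the labels alone, as the 3 parental libraries labelled ATRA+DAChigh against the 3 parental libraries that received DMSO (0.7% v/v), the solvent of the drugs. The treated cells received 2 µM ATRA and decitabine at 50 µM per the labels, a unit that could not be checked here, 24 h after seeding, and RNA was taken at 72 h, after 48 h of exposure. The medium of all groups was RPMI-1640 with fetal bovine serum at 10%. The other 12 libraries are of the resistant populations 1 and 2 of the same line under the same treatments, and they enter here only at the end. No library received either drug alone, so the parts played by the retinoid and by decitabine cannot be told apart. The libraries are labelled as biological replicates of 1 line, so p-values measure the spread between these cultures.

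ATRA is the hormone form of vitamin A and binds the retinoic acid receptors, which sit with retinoid X receptors on response elements in the DNA and switch from repression to activation when the ligand arrives. Among their best known targets are the enzymes that destroy retinoic acid, the receptor RARB and the HOX genes. Decitabine resembles deoxycytidine, enters DNA as cells replicate and traps DNA methyltransferases there, so that daughter strands lose methylation and the trapped protein acts as DNA damage. Genes kept silent by promoter methylation in somatic cells, among them cancer-testis and germline genes, are known to respond to it.

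Levels are counts per M reads of a library (CPM), with the libraries scaled by the trimmed mean of M-values (TMM). Fold changes are differences of log2(CPM + 1), treated minus DMSO, tested with limma over all genes with at least 10 reads in at least 3 of the 6 libraries. A gene is called at a Benjamini-Hochberg adjusted p under 0.05. Reads over the tested genes came to between 116.0 and 125.8 M in a DMSO library and between 128.9 and 150.8 M in a treated one. The keratins KRT8 (799 CPM) and KRT18 (733 CPM) were abundant in the DMSO libraries of this line, which is labelled epithelial, while the epithelial adhesion molecule EPCAM was at only 0.852 CPM. Markers of immune cells summed to 1.91 to 4.04 CPM over 12 tested markers under DMSO and to 48.0 to 54.5 CPM under treatment, and CD14 made up 36.8 CPM of the latter. PTPRC, the pan-leukocyte marker, was at 0.646 CPM under treatment, after 1 read over the 3 DMSO libraries. Endothelial markers, counting those with too few reads to be among the 9 tested, summed to 1.00 to 1.07 CPM and to 10.8 to 13 CPM. For 10 fibroblast markers the sums were 98.2 to 122 CPM and 208 to 221 CPM. What part these markers have in the results below was not tested. In such bulk RNA, a change in the share of cells that express a gene and a change in the RNA per cell cannot be told apart.

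Of 22816 genes tested, 9227 (40.4%) were called higher and 6565 (28.8%) lower under ATRA and decitabine. A change of at least 2-fold was called higher in 2205 genes (9.66%) and lower in 758 (3.32%), and the median log2 fold change over all tested genes was 0.05. The first principal component, which separated the treatments, held 93.9% of the variance. The calls split by level. Of 4379 tested genes under 0.1 CPM in DMSO, 3777 were called higher and 5 lower, whereas of 2595 genes over 100 CPM 222 were called higher and 1769 lower. Of the tested genes, 3445 (15.1%) passed the read filter only through the treated libraries, so they had to be higher. Among the other 19371, 5910 were called higher and 6565 lower. The treated libraries also held reads in more genes, 35402 to 35964 against 28025 to 28623, and this remained at 34320 to 35066 against 27578 to 27971 when every library was thinned to 100 M reads. The TMM factors were 0.888 to 0.903 for DMSO and 1.10 to 1.14 for treatment. With libraries scaled by their total alone, 12247 genes were called higher and 3524 lower, so that 77.7% of the calls were higher in place of 58.4%, and the median moved up by 0.14. Without treated replicate 1, 2 or 3 the count of higher calls was 5881, 5772 or 5752, over fewer genes, since fewer could be tested with 2 treated libraries. Tested on the reads with edgeR, with no pseudocount of 1 CPM, 6372 genes were called higher and 1379 lower at least 2-fold.

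**Figure D1:**
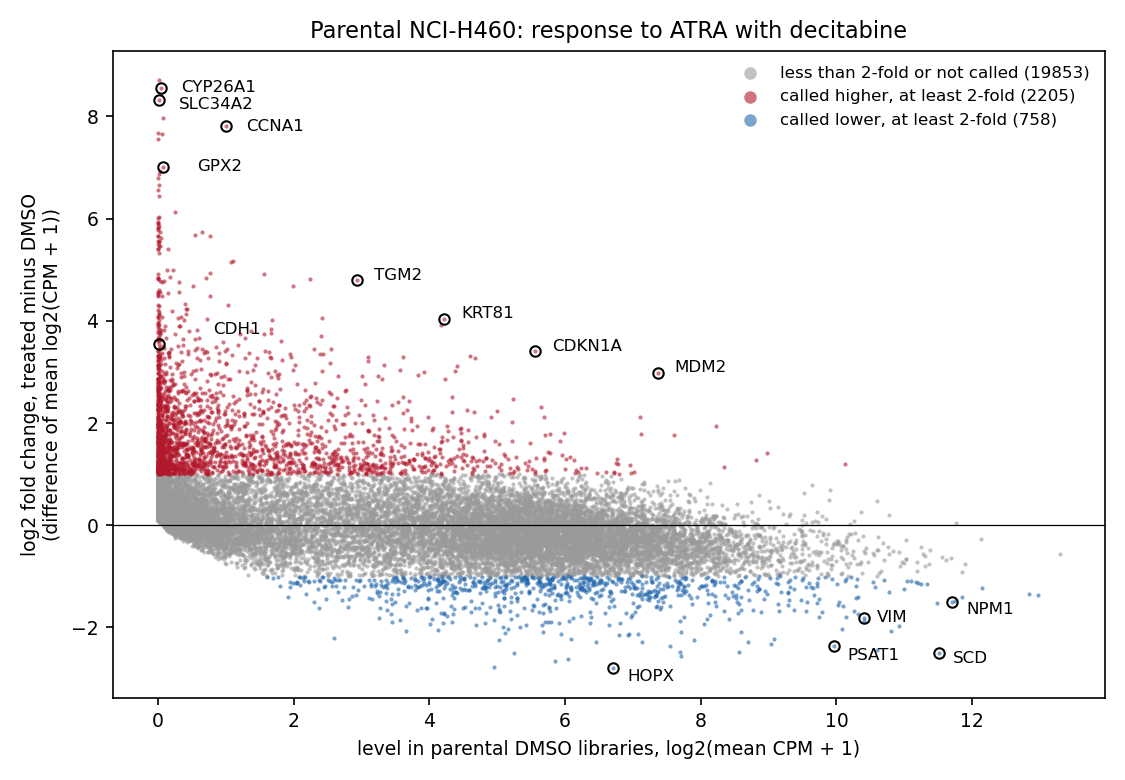
Log2 fold change (treated minus DMSO, log2(CPM + 1) scale) of each of the 22816 tested genes against its level in the DMSO libraries, log2(mean CPM + 1). Red and blue points are the 2205 genes called higher and the 758 called lower at least 2-fold, the rest are grey, and circles mark named genes. Large rises lie mostly at low DMSO levels.

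Retinoid target genes gave some of the largest changes. CYP26A1, the cytochrome P450 that breaks down retinoic acid, had the largest log2 fold change of any protein-coding gene tested. It lies on chr10:93073475-93077890 (GRCh38, ENSG00000095596). It stood at 0.0269, 0.0449 and 0.0289 CPM in DMSO replicates 1 to 3, which together held 11 reads, and at 410.3, 366 and 388 CPM in the treated ones (means 0.0336 ± 0.00985 and 388 ± 22.0, SD, n = 3; log2 fold change 8.56 ± 0.07 SE, limma adjusted p = 8.24e-10). The RNA was thus near absent in all DMSO libraries and abundant in all treated ones, with no overlap. RARB, the retinoic acid receptor beta (ENSG00000077092, chr3:25174332-25597932), was already present under DMSO at 13.6, 12.2 and 12.4 CPM and rose to 31.8, 32 and 32.3 CPM (log2 fold change 1.27 ± 0.07 SE, adjusted p = 1.59e-06). The promoters of both genes are shown because they carry the retinoic acid response element of the direct repeat type with 5 bases between its repeated parts (DR5). The sequences are RefSeq windows on GRCh38.p14 from 250 bases before to 50 bases after a start site, 5′ to 3′, with the element in capitals.

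RARB, chr3:25428013-25428312, plus strand: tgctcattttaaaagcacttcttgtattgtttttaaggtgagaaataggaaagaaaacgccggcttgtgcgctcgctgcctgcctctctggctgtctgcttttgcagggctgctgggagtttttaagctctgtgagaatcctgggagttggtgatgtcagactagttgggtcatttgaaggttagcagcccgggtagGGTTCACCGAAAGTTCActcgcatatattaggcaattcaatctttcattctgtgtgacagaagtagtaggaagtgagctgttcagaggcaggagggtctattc

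CYP26A1, chr10:93073643-93073942, plus strand: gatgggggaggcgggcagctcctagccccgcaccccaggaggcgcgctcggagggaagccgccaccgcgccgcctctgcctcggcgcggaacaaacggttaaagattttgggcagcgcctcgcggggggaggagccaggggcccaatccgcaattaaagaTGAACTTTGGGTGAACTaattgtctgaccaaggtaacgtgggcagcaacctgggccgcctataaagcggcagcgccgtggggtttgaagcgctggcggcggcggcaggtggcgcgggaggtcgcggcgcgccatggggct

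The element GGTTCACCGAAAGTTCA begins 53 bases before the RARB start, and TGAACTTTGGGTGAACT, which reads as the element on the opposite strand, begins 90 bases before the CYP26A1 start. The search took repeated parts of the retinoic acid receptor type on both strands and found the DR5 element in 31 of 35116 promoter windows (0.0883%), which belong to 29 genes. Of the windows of tested genes called higher at least 2-fold, 2 (0.088%) held it, a share near that of all windows. Of those called lower at least 2-fold 0 held the DR5 element, and of those of the remaining tested genes 12 (0.0725%). Among the tested genes of the lists used here, it was found in RARB, CYP26A1 and CFLAR. The related repeat with 2 bases between repeated parts (DR2) was found in 14 windows (0.0399%). Elements farther from the start are outside these windows.

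The other retinoid genes are given by role. Of the enzymes and carriers, CYP26B1, a second retinoic acid hydroxylase, rose from 3.40, 3.56 and 2.48 CPM to 22.9, 28.1 and 30.6 CPM (2.77, adjusted p = 9.31e-07). DHRS3, which returns retinal to retinol, rose from 12.2, 11.8 and 8.64 CPM to 104, 89.3 and 92.5 CPM (3.03 ± 0.13 SE, adjusted p = 2.94e-07), a ratio of means of 8.76. STRA6, the cellular uptake receptor for retinol, stood at 0.645, 0.502 and 0.154 CPM and then at 38.5, 33.8 and 33.6 CPM (4.68 ± 0.14 SE, adjusted p = 7.32e-08). In each of these genes the lowest treated library lay several times above the highest DMSO library. CRABP2, which carries retinoic acid to the nucleus, rose from 1.92 ± 0.192 to 17.4 ± 0.872 CPM (2.66), and ALDH1A3, which makes retinoic acid, from 3.04 to 34.5 CPM (3.13). Of 18 tested genes of retinoid synthesis and carriage, 13 were higher and 4 lower (median 0.76), beside 40.4% and 28.8% of all genes. Among the 18, 4 passed the read filter through the treated libraries alone, and of the other 14, 9 were higher and 4 lower.

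Among the downstream targets, TGM2, the tissue transglutaminase, rose from 4.67, 8.12 and 7.19 CPM to 202, 205 and 215 CPM (means 6.66 ± 1.78 and 207 ± 6.50; 4.79 ± 0.16 SE, adjusted p = 1.01e-07), a ratio of 31.1. ICAM1, an adhesion molecule, rose from 2.51 to 41.3 CPM (3.60). Of 26 tested targets, 20 were called higher, 10 of them at least 2-fold, and 1 lower (median 0.89), beside 40.4% and 28.8% of all genes. Among the 26, 6 passed the read filter through the treated libraries alone, and of the other 20, 14 were higher and 1 lower. PLAAT4, a further retinoid target, was not called (adjusted p = 0.174), though it was by library total (0.11, adjusted p = 0.0419). The receptors themselves moved less: RARA went from 19.3 ± 4.98 to 30.7 ± 2.94 CPM (0.67, adjusted p = 0.00687), RARG from 31.7 to 51.5 CPM (0.69, adjusted p = 0.000784), and RXRA was not called (0.38, adjusted p = 0.0992). RXRA was called by library total (0.69, adjusted p = 0.00857) and without DMSO replicate 2 (adjusted p = 0.0333). Of the 12 tested receptors and cofactors, 6 were called higher and 2 lower, beside 40.4% and 28.8% of all genes. With scaling by library total the counts were 9 and 0.

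HOX genes, which set position along the body axis, were mostly higher. Of 34 tested, 25 rose, 11 of them at least 2-fold, and 3 fell (median 0.78), beside 40.4% and 28.8% of all genes. Among the 34, 6 passed the read filter through the treated libraries alone, and of the other 28, 19 rose and 3 fell. The rises of at least 2-fold came from all 4 HOX clusters. HOXC12 (2.79), HOXC13 (2.33) and HOXC10 (2.01) at the 5′ end of the HOXC cluster rose, as did HOXA5 (7.002 to 31.2 CPM, 2.01), HOXB4 (1.57) and HOXD13 (4.34 to 14.3 CPM, 1.52). HOXB5 (log2 fold change -1.07), HOXB6 (-0.57) and HOXB9 (-0.72) were lower.

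**Figure D2:**
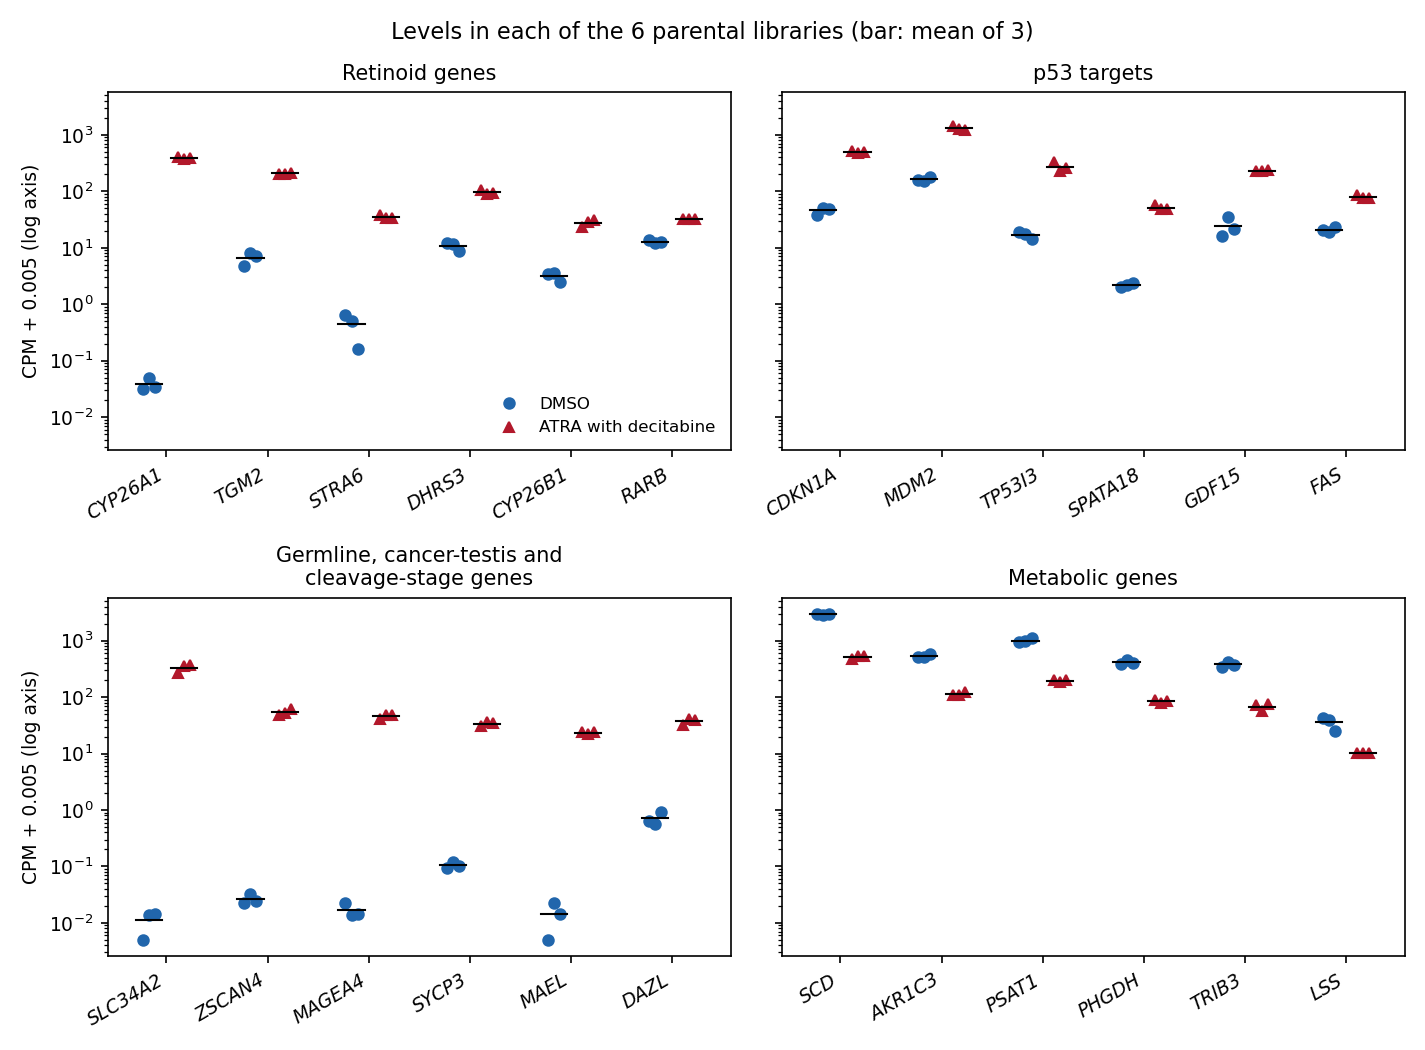
Level in each library (CPM plus 0.005, log axis) of 24 genes, with DMSO and treated libraries side by side and 1 point per library. The rows show retinoid targets, p53 targets, genes near absent under DMSO and metabolic genes. CYP26A1 moved from under 0.05 to over 365 CPM, and SCD fell in all 3 treated libraries.

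Targets of p53, the transcription factor that responds to DNA damage, rose as a group. Of 40 tested, 34 were called higher, 28 of them at least 2-fold, and 1 lower, beside 40.4% and 28.8% of all genes. Their median log2 fold change was 1.81, beside 0.05 over all genes. All 40 were tested, so the read filter removed none. CDKN1A, the cyclin-dependent kinase inhibitor p21 (ENSG00000124762, chr6:36676460-36687339), rose from 38.7, 50.9 and 48.7 CPM to 507, 471 and 501 CPM (46.1 ± 6.52 to 493 ± 19.4, SD, n = 3; 3.40 ± 0.10 SE, limma adjusted p = 6.83e-08), which is 10.7-fold. MDM2, the ubiquitin ligase that degrades p53 (chr12:68808176-68850686), rose from 157, 155 and 179 CPM to 1444, 1245 and 1210.4 CPM (2.98 ± 0.09 SE, adjusted p = 7.25e-08), a ratio of 7.94. In both genes the treated and DMSO libraries were far apart, and replicates of a group differed little.

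Other p53 targets spanned arrest, death and metabolism. TP53I3, a quinone reductase, rose from 19.2, 17.5 and 14.3 CPM to 332, 225 and 258 CPM (3.91), with treated replicate 1 the highest. TP53INP1, which acts in stress-induced death and autophagy, rose from 4.34 to 87.8 CPM (4.06, adjusted p = 3.06e-08), and SPATA18, which acts in mitochondrial quality control, from 2.20 ± 0.194 to 51.1 ± 4.69 CPM (4.02). GDF15, a secreted stress cytokine, rose from 15.9, 35.5 and 21.7 CPM to 231, 225 and 243 CPM (3.27 ± 0.24 SE, adjusted p = 5.82e-06). Its DMSO replicate 2 was above the other two, and the groups did not overlap. The death receptor FAS rose from 20.9 to 79.3 CPM (1.88), the decoy receptor TNFRSF10C from 0.652 to 26.2 CPM (4.03), the BH3-only killer BBC3 (PUMA) from 4.98 to 13 CPM (1.26), and the ribonucleotide reductase subunit RRM2B from 62.0 to 219.7 CPM (1.81). MDM4, the relative of MDM2 that restrains p53, was lower (-0.30, adjusted p = 0.00624).

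Cell cycle genes moved far less than the p53 targets. Beside the counts below stand 40.4% higher and 28.8% lower over all genes. Lower calls were more frequent at high levels, with 43.3% of genes at 10 to 100 CPM in DMSO and 68.2% over 100 CPM. Of 42 genes of the G1/S transition and replication, 4 were called higher and 17 lower (median -0.21), and with scaling by library total 19 were higher and 11 lower (median 0.10). Of 39 genes of G2 and mitosis, 1 was higher and 27 lower (median -0.33), against 10 and 14 by library total (median -0.01). Homologous recombination and Fanconi genes were 2 higher and 26 lower of 37 (median -0.46), against 8 and 15. The direction of these lists as a whole thus turned or shrank with the scaling. The proliferation marker MKI67 stood at 589, 516 and 506 CPM and then at 494, 553 and 496 CPM, with overlapping groups (-0.06, adjusted p = 0.525), and was called higher by library total (0.26, adjusted p = 0.0227). The mitotic cyclin CCNB1 behaved alike (-0.09, adjusted p = 0.302, and 0.24, adjusted p = 0.0111, by library total), and without DMSO replicate 2 it was called lower (-0.17, adjusted p = 0.0344).

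A few cell cycle and repair genes changed by about 2-fold or more. The exonuclease EXO1 fell from 625 to 252 CPM (log2 fold change -1.30), the primase subunit PRIM1 from 72.0 to 27.3 CPM (-1.37), the clamp loader subunit RFC4 by 1.13 and the break sensor NBN by 1.35 on the log2 scale. CDC20, the activator of the anaphase-promoting complex, rose from 125 to 252 CPM (1.01) and was the only G2 and mitosis gene called higher. Replication-dependent histone genes were called higher in 12 of 13 tested, with a median of 0.87; linker histone H1-2 rose from 5.95 to 30.8 CPM (2.20) and H4C8 by 1.98. These libraries were made from polyadenylated RNA, which histone messages of S phase mostly lack, and histone genes share near-identical sequence. Of the BCL2 family, 7 of 16 were higher and 5 lower, shares near the 40.4% and 28.8% of all genes. The killers BMF (0.233 to 4.31 CPM, 2.11) and BIK (2.01) rose, and the survival gene MCL1 fell from 969 ± 269 to 522 ± 75.7 CPM (-0.86, adjusted p = 0.00577). Of 23 death receptor and caspase genes, 10 were higher and 7 lower, again near those shares, with BIRC3 (1.42), CASP9 (1.17) and CASP4 (-1.60).

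Genes of DNA methylation, of the uptake and metabolism of decitabine and of nucleotide supply moved in both directions. Over all genes, 40.4% were called higher and 28.8% lower. Of 19 genes of DNA methylation, 5 were called higher and 6 lower (median 0.01), and 10 and 1 by library total. DNMT1, the maintenance methyltransferase, stood at 265, 266 and 219 CPM and then at 207, 196 and 196 CPM (-0.32, adjusted p = 0.0104). That call ended with scaling by library total (0.00, adjusted p = 0.977) and without treated replicate 1, 2 or 3 (adjusted p = 0.0613, 0.114 and 0.123). DNMT3B, a de novo methyltransferase, rose from 9.72 to 22.3 CPM (1.13), UHRF1, which guides DNMT1 to replicated DNA, from 42.1 ± 13.8 to 63.6 ± 8.26 CPM (0.63, adjusted p = 0.0368, and 0.0787 without treated replicate 1), and the methylcytosine oxidase TET1 fell from 15.4 to 8.70 CPM (-0.76). DNMT3A was not called (adjusted p = 0.393). The 19 tested genes of decitabine uptake and metabolism and of nucleotide supply divided into 4 higher and 11 lower (median -0.36). By library total the counts were 5 and 8 (median -0.04). Genes of nucleotide supply in this list include RRM1, RRM2 and DUT, called lower, RRM2B, called higher, and TYMS and TK1, not called. DCK, the kinase that activates decitabine, went from 34.3 to 28.1 CPM (-0.28, adjusted p = 0.0169), a call that ended by library total (0.03, adjusted p = 0.729) and without DMSO replicate 1 (adjusted p = 0.059) or treated replicate 1, 2 or 3 (0.143, 0.196 and 0.121). CDA, the deaminase that inactivates decitabine, rose from 0.392 to 1.99 CPM (1.11), and RRM2B, given above, by 1.81. The deoxycytidylate deaminase DCTD fell from 84.2 to 38.9 CPM (-1.10) and the uptake carrier SLC29A1 by 0.57 on the log2 scale. The ribonucleotide reductase subunit RRM2 fell from 570 to 291 CPM (-0.96), and the nucleotidases NT5C (-1.06) and NT5C3A (-0.94) fell as well. In the fit of all 18 libraries the calls of DNMT1 (adjusted p = 0.0842), UHRF1 (0.113), DCK (0.098) and SLC29A1 (0.0698) were lost.

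The genes with the largest changes after CYP26A1 were mostly silent under DMSO. Reads were at most 3 in each DMSO library for 2248 tested genes, and 369 of these reached at least 1 CPM in every treated library. No tested gene did the reverse. Checks of the treated values, whose decimal points had to be restored, had left out 652 genes before this count. The DMSO level entered those checks, and 308 of the 652 were more than 4-fold higher and 52 more than 4-fold lower. Of the 369, 283 are protein-coding, and 47 of these lie on the X chromosome, which holds 4.07% of all tested protein-coding genes. Such genes passed the read filter through the treated libraries alone, so their direction was fixed by the filter, and their fitted log2 fold changes depend on the pseudocount of 1 CPM. Over the tested genes without a single DMSO read, 957 in all, folds are given as lower bounds against a floor of 3 counts in each library.

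A set of genes known from the cleavage-stage embryo, the targets of the transcription factor DUX4, stood at the top. SLC34A2, a phosphate carrier (ENSG00000157765, chr4:25648011-25678748), had 2 reads over the 3 DMSO libraries (0, 0.00900 and 0.00960 CPM) and 265, 349 and 363 CPM under treatment (326 ± 53.1; fitted 8.33). CCNA1, the germline cyclin A (chr13:36431520-36442882), was detected under DMSO at 0.636, 1.11 and 1.26 CPM and rose to 346, 486 and 518 CPM (7.81, adjusted p = 2.46e-08), a ratio of 448. TRIM43B went from 1 read to 156, 222 and 243 CPM and TAF11L12 from 15 reads to 173, 226 and 233 CPM. Treated replicate 1 was the lowest of the 3 in each of these 4 genes.

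Further members were H3Y1, a primate histone H3 variant (3 DMSO reads, then 104, 113 and 138 CPM), PRAMEF12 (6 reads, then 105, 127 and 141 CPM), and the zinc finger gene ZSCAN4 (0.0214 to 53.8 ± 6.15 CPM). The homeobox genes LEUTX (29.8 ± 6.02 CPM), TPRX1 (28.0 CPM) and DUXA (9.01 ± 2.51 CPM) had no DMSO read. DUX4 itself had none either and reached 0.103 ± 0.00658 CPM. The list of 50 such genes was added after these changes were seen. Of its members 46 were tested, 44 of them through the treated libraries alone, and 46 were called higher, 41 at least 2-fold, with a median of 4.78 and of 6.90 with the 24 members without a DMSO read at their lower bound; it is given as a description. Many of these genes belong to families with near-identical copies (TRIM43 and TRIM49, PRAMEF, TAF11L, MBD3L, H3Y), among which the counting can divide reads, so values of single copies are uncertain.

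The promoters of 3 of these genes are shown because they carry the sequence motif known to be bound by DUX4, in capitals, in RefSeq windows of the same build and length.

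TRIM48, chr11:55261905-55262204, plus strand: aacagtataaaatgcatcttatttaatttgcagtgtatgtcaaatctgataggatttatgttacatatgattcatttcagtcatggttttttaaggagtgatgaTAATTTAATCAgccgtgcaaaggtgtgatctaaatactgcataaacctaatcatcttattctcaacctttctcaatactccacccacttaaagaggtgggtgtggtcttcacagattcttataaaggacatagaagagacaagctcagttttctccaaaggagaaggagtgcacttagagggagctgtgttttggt

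H3Y1, chr5:17655800-17656099, minus strand: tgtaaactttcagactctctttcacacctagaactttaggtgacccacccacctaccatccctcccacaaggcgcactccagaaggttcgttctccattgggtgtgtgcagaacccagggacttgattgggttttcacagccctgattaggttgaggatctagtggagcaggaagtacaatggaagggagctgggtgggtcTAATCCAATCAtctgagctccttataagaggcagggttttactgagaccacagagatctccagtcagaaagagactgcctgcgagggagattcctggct

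MBD3L2, chr19:7049071-7049370, plus strand: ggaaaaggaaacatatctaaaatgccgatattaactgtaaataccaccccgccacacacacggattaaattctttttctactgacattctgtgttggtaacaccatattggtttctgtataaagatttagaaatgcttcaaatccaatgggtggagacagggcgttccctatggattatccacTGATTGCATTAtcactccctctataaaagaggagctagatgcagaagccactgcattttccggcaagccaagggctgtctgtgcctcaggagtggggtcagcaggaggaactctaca

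The match TAATTTAATCA begins 146 bases before the TRIM48 start, TAATCCAATCA begins 49 bases before the H3Y1 start, and TGATTGCATTA, the motif on the opposite strand, begins 67 bases before the MBD3L2 start. TRIM48 reached 39.6 CPM and MBD3L2 16.1 CPM under treatment. Searched on both strands, the motif was found in 152 of 35116 windows (0.433%). It was found in 12 of the 44 windows (27.3%) of the 39 list members with a RefSeq window, in windows of 12 different genes. Of the windows of tested genes called higher at least 2-fold, 25 (1.1%) held it, of those called lower at least 2-fold 3 (0.337%), and of those of the remaining tested genes 36 (0.217%). These shares are descriptions: members of a family share their promoter sequence, and a match is not a measured binding site.

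Cancer-testis genes, which are silent in most somatic tissues and encode antigens found in tumours, were called higher in 43 of 44 tested and lower in none, 31 of them at least 2-fold. The exception was MAGEA1, which was not called. The share of higher calls over all genes was 40.4%. Of the 44, 38 passed the read filter through the treated libraries alone, and of the other 6, 5 were higher. MAGEA4 (ENSG00000147381, chrX:151912509-151925170) went from 4 reads to 41.7, 47.7 and 48.3 CPM (fitted 5.53). MAGEC1, which had no DMSO read, reached 21.1, 22.8 and 23.4 CPM, at least 814-fold higher, and MAGEC2 20.2, 21.8 and 22.0 CPM, at least 774-fold higher. In these 3 genes the treated replicates lay close together. SSX1 went from 0.152 to 19.97 CPM (4.19), a ratio of 131, and CTAG2 from 1 read to 2.49 CPM. MAGEB2 was expressed under DMSO and rose less, from 69.8 to 116 CPM (0.73). The MAGE and SSX families hold near-identical copies.

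Of 45 tested genes of meiosis, germ cells and the piRNA pathway, 40 were higher, 30 of them at least 2-fold, and 2 lower (SYCE2 and MSH5). The shares over all genes were 40.4% and 28.8%. Among the 45, 23 passed the filter through the treated libraries alone. Of the other 22, 17 were higher and 2 lower. SYCP3, a core protein of the synaptonemal complex (chr12:101728648-101739472), rose from 0.0895, 0.117 and 0.0965 CPM to 30.9, 36.8 and 34.1 CPM (4.99), a ratio of 336. DAZL, a germ cell RNA-binding protein, was present under DMSO at 0.645, 0.556 and 0.907 CPM and rose to 31.4, 41.5 and 39.3 CPM (4.49), a ratio of 53.2. MAEL, which protects the germline from transposons, went from 3 reads to 24.4, 22.5 and 23.7 CPM (fitted 4.60). All treated libraries lay far above all DMSO libraries in these 3 genes. The testis tubulin TUBA3D, without a DMSO read, reached 17.6 ± 1.10 CPM, at least 639-fold higher. The promoters of MAEL, DAZL and MAGEA4 are shown because they differ in the number of CpG dinucleotides, the sites of DNA methylation, which are in capitals.

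MAEL, chr1:166975332-166975631, plus strand: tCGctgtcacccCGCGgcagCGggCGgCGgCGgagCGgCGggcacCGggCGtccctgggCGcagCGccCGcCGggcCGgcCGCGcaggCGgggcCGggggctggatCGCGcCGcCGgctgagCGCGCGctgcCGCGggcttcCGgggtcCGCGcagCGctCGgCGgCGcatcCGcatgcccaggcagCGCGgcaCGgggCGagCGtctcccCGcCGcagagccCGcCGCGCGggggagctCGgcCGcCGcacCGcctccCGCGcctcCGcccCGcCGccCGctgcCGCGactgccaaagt

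DAZL, chr3:16605374-16605673, minus strand: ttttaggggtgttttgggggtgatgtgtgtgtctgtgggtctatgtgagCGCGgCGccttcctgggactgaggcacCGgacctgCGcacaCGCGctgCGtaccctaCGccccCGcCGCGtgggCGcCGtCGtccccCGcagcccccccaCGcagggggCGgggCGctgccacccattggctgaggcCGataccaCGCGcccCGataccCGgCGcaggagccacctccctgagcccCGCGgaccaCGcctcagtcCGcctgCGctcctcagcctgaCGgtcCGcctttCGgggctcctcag

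MAGEA4, chrX:151912224-151912523, plus strand: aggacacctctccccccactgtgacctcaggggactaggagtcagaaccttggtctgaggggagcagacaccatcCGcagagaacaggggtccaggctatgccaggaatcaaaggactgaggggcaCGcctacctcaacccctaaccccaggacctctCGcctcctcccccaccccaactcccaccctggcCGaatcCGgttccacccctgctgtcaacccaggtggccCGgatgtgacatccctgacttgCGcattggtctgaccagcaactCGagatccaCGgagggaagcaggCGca

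The window holds 60 CpG sites in MAEL, 33 in DAZL and 10 in MAGEA4, so genes that were near silent under DMSO and rose under treatment had dense as well as sparse CpG promoters. MAGEA4 has 5 such windows and MAEL and DAZL have several as well, and 1 is shown of each. Methylation was not measured in these libraries.

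Imprinted genes, which are expressed from a single parental allele, were called higher in 18 and lower in 4 of 27 tested (median 0.42). The shares over all genes were 40.4% and 28.8%. Of the 27, 8 passed the read filter through the treated libraries alone, and of the other 19, 10 were higher and 4 lower. The noncoding RNA H19 went from 8 reads to 37.4, 47.0 and 49.6 CPM (5.47), its neighbour IGF2, a growth factor, from 0.185 to 14.9 CPM (3.75), a ratio of 80.5, and MEG3 from 1 read to 111 ± 14.2 CPM. PEG10 was not called, though it was called lower without DMSO replicate 3 (-0.30, adjusted p = 0.024). Other genes that were near silent under DMSO included the placental and germ cell phosphatases ALPG (1 read, then 168, 192 and 206 CPM) and ALPP (1 read, then 92.6, 91.7 and 97.9 CPM), which are near-identical, the glutathione peroxidase GPX2 (17 reads, then 154, 125 and 128 CPM; 7.02) and TEX13C (4 reads, then 89.6, 86.3 and 85.7 CPM; 6.44). By chromosome, 15.5% of the tested genes on X and 13.5% of those on chromosome 19 were called higher at least 2-fold, against 9.66% of all.

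**Figure D3:**
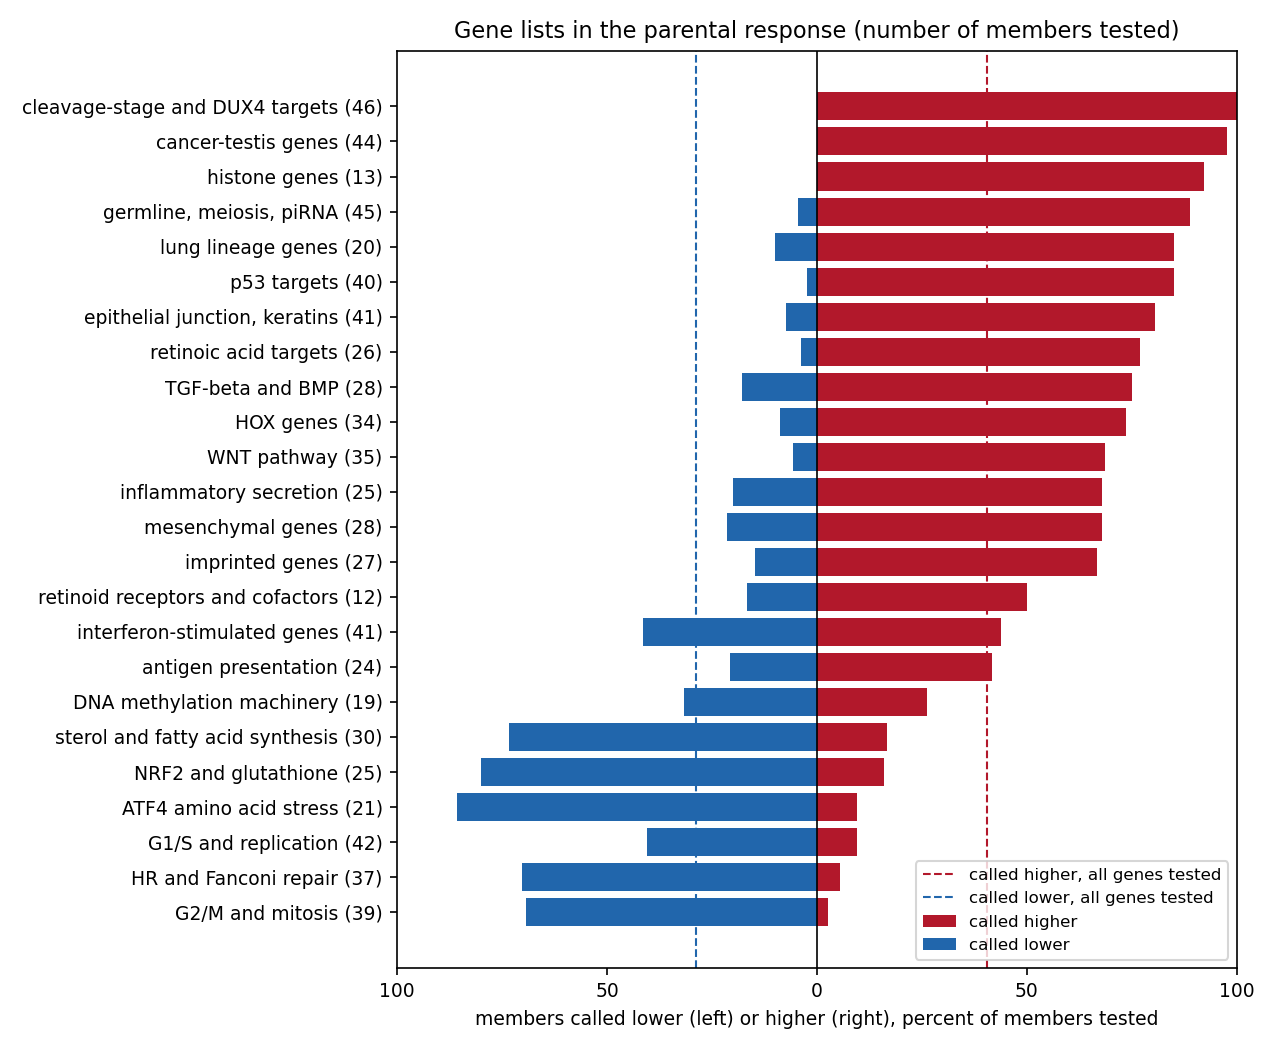
Share of the tested members of 24 gene lists called higher and lower (percent), with the number tested beside each name. Dashed lines mark the shares over all 22816 genes, 40.4% higher and 28.8% lower. The p53 target list lies above the line for higher calls with no member that entered through the treated libraries alone, whereas the cleavage-stage, cancer-testis and germline lists hold many such members, whose direction the filter fixed. The ATF4, NRF2 and sterol lists lie above the line for lower calls. Of genes over 100 CPM in DMSO, 68.2% were called lower, a share that this line does not show.

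Epithelial junction genes and mesenchymal genes were both called higher more than lower, as were all tested genes (40.4% and 28.8%). Of 41 epithelial genes, 33 were higher, 23 of them at least 2-fold, and 3 lower (median 1.31), and 7 passed the filter through the treated libraries alone. DSP, the desmosome protein desmoplakin, rose from 3.37, 3.11 and 2.43 CPM to 84.7, 113 and 104 CPM (2.97 ± 0.483 to 100.5 ± 14.5; 4.67). CDH1, E-cadherin (ENSG00000039068, chr16:68737225-68835548), went from 4 reads to 10.6, 10.9 and 10.8 CPM (3.54). The treated replicates of CDH1 were almost equal. The epithelial splicing regulator ESRP2 rose from 0.224 to 19.4 ± 0.101 CPM (4.06), the protease inhibitor SPINT2 from 0.234 to 17.5 CPM (3.91), the hair keratin KRT81 from 17.6 to 299 CPM (4.04), KRT7 from 7.27 to 55.1 CPM (2.77) and EPCAM from 0.852 to 7.89 CPM (2.26). KRT81 shares sequence with KRT86, so its value is uncertain. KRT19 went the other way, from 774 to 350 CPM (-1.14), as did CLDN1 and CD24.

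Of 28 mesenchymal genes, 19 were higher and 6 lower (median 0.98), beside 40.4% and 28.8% of all genes. Among the 28, 5 passed the read filter through the treated libraries alone, and of the other 23, 14 were higher and 6 lower. VIM, vimentin, the intermediate filament of mesenchymal cells (chr10:17228259-17237593), fell from 1407, 1308 and 1336 CPM to 392, 375 and 384 CPM (1350.2 ± 50.9 to 384 ± 8.37; -1.81, adjusted p = 1.15e-07). The collagens moved in both directions: COL1A2 went from 6 reads to 27.1 CPM (4.78) and COL1A1 from 7.52 to 79.7 CPM (3.29), while COL3A1 fell from 59.1 to 15 CPM (-1.91). N-cadherin, CDH2, rose from 3.11 to 11.4 CPM (1.59), and fibronectin, FN1, was not called (0.05, adjusted p = 0.679), though it was by library total (0.37, adjusted p = 0.00418). COL1A1, COL1A2 and COL3A1 are also among the 10 tested fibroblast markers, of which 6 were higher and 2 lower; their part in these changes was not tested.

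**Figure D4:**
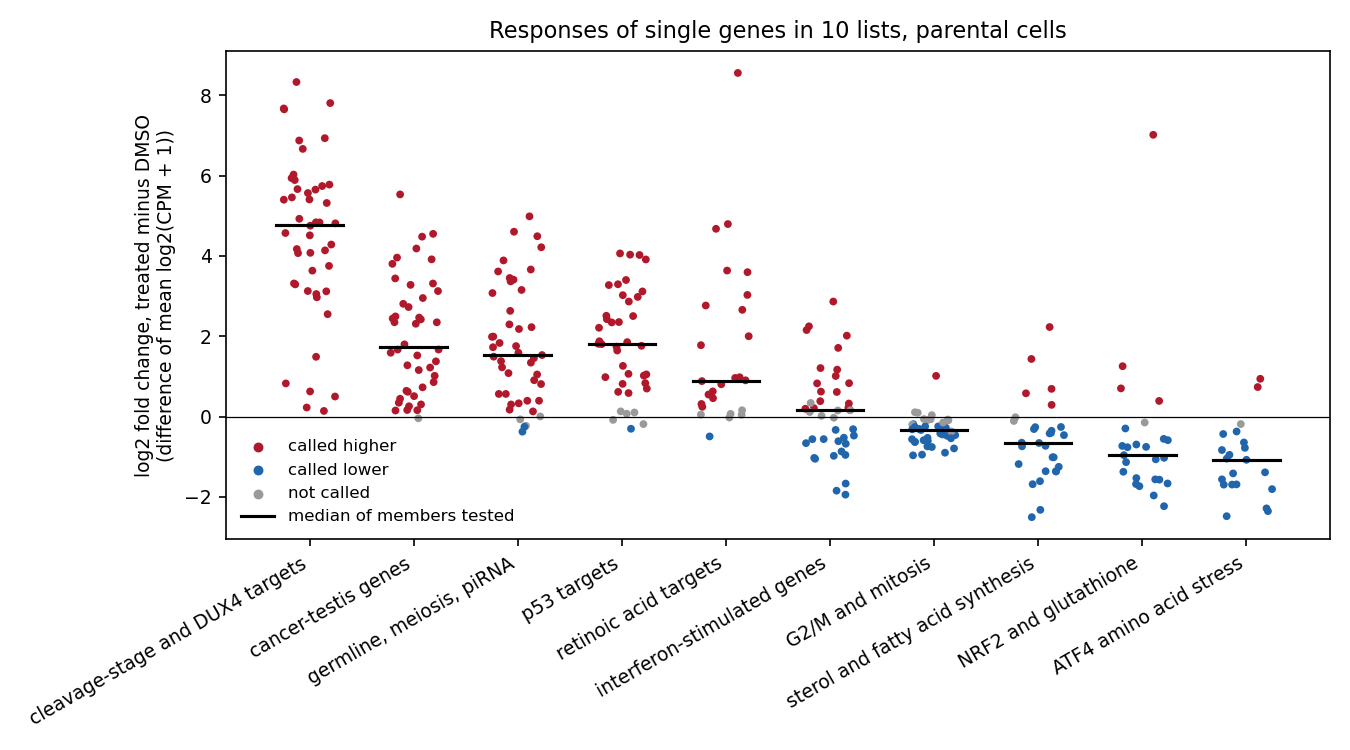
Log2 fold change (treated minus DMSO, log2(CPM + 1) scale) of each tested member of 10 gene lists, 1 point per gene, with a bar at the median of each list. The p53 target median is 1.81, and the ATF4 median is -1.08.

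Interferon-stimulated genes, which respond to viral nucleic acid through interferon, did not move together. Of 41 tested, 18 were called higher and 17 lower (median 0.15), beside 40.4% and 28.8% of all genes. By library total 24 were higher and 13 lower. The higher ones were led by TRIM22 (1.08 to 14.2 CPM, 2.86), LAMP3 (2.25), HERC5 (6.81 to 33.8 CPM, 2.15) and MX2 (2.02), and ISG15, the ubiquitin-like modifier, rose from 1.63 to 4.75 CPM (1.17, adjusted p = 0.00219). IFIT1 went from 2.48 to 3.34 CPM (0.33, adjusted p = 0.0308), a call that ended without treated replicate 1 (adjusted p = 0.0512), DMSO replicate 2 (0.114) or DMSO replicate 3 (0.0532). In the other direction IFI44L fell from 24.9 to 5.71 CPM (-1.94) and IFI44 from 35.7 to 9.19 CPM (-1.84). OAS1, which senses double-stranded RNA, went from 177 ± 9.23 to 111 ± 18.2 CPM (-0.68, adjusted p = 0.000693).

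Of 27 genes of RNA sensing and interferon signalling, 9 were higher and 6 lower, beside 40.4% and 28.8% of all genes. By library total 19 were higher and 3 lower. The transcription factor IRF1 rose from 9.96 to 36.3 CPM (1.77), IRF7 by 1.53 and STING1 by 1.00, while the helicase DHX58 fell by 1.00 on the log2 scale. In antigen presentation, 10 of 24 were higher, a share near the 40.4% of all genes, and 5 lower, and 16 and 1 by library total. HLA-B rose from 18 to 41.3 CPM (1.15) and the peptide transporter TAP1 by 0.80. The light chain B2M fell from 492 to 379.7 CPM (-0.37, adjusted p = 0.0038) and TAPBP by 0.82 on the log2 scale. The B2M call ended by library total (-0.05, adjusted p = 0.611) and without treated replicate 2 (adjusted p = 0.0505). CD74, the class II invariant chain and also a gene of antigen-presenting immune cells, had no DMSO read and reached 2.32 CPM, at least 84.2-fold higher. The immune markers given above moved the same way, and their part was not tested.

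Several of the largest falls were in metabolic genes. Of 21 genes of the amino acid stress programme driven by ATF4, 18 were lower, 12 of them at least 2-fold, and 2 higher (median -1.08 beside 0.05 over all genes). All genes were called lower in 28.8% and higher in 40.4%. Lower calls reached 43.3% at 10 to 100 CPM in DMSO (median -0.15) and 68.2% over 100 CPM (median -0.39). What part the level has in the falls of these lists was not tested. PSAT1, which makes phosphoserine (ENSG00000135069, chr9:78297143-78330093), fell from 929.6, 969 and 1096 CPM to 197, 183 and 202 CPM (-2.35, adjusted p = 1.09e-07). TRIB3, a pseudokinase induced by ATF4, fell from 344, 418 and 374 CPM to 72.1, 56.0 and 74.0 CPM (-2.48). The groups of both genes were far apart. PHGDH, the entry enzyme of serine synthesis, fell from 414 to 84.1 CPM (-2.28), the mitochondrial folate enzyme MTHFD2 from 1131 to 322 CPM (-1.81) and, outside the list, the proline enzyme PYCR1 from 186 to 35.2 CPM (-2.37). ATF4 itself fell from 882 to 272 CPM (-1.69). The 2 members called higher were ATF3 (0.94) and DNAJB9 (0.74).

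Genes of lipid synthesis and of the antioxidant programme were lower as well. Here too, 28.8% of all genes were called lower and 40.4% higher. At 10 to 100 CPM in DMSO 43.3% were lower, and over 100 CPM 68.2%. Of 30 sterol and fatty acid genes, 22 were lower, 11 of them at least 2-fold, and 5 higher (median -0.65), and 12 and 6 by library total (median -0.33). SCD, the desaturase that makes monounsaturated fatty acids (ENSG00000099194, chr10:100347124-100364834), fell from 2954, 2898 and 2948 CPM to 473, 536 and 543 CPM (2933 ± 31.0 to 517 ± 38.9; -2.50, adjusted p = 7.1e-08). The sterol carrier STARD4 fell from 526 to 103 CPM (-2.32) and LSS, lanosterol synthase, from 35.5 to 10.1 CPM (-1.68). Some members of the list rose, among them the cholesterol exporter ABCA1 (14.8 to 41.7 CPM, 1.44) and the cholesterol transporter NPC1 (119 to 193 CPM, 0.69). Of 25 NRF2 and glutathione genes, 20 were lower, 12 of them at least 2-fold, and 4 higher (median -0.96). The aldo-keto reductases AKR1C3 (539 to 114 CPM, -2.23) and AKR1B10 (1930.4 to 496 CPM, -1.96) and the pentose phosphate enzyme PGD (1270.2 to 381 CPM, -1.73) fell, while GPX2, given above, rose. The AKR1C genes share much sequence, so values of single copies are uncertain.

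Falls outside these lists were led by HOPX, a homeodomain cofactor (chr4:56647988-56681899), at 107, 99.2 and 106 CPM and then 14.9, 12.1 and 15.2 CPM (-2.80). HPGDS, a prostaglandin synthase, fell from 30.1 to 3.50 CPM (-2.78), the proton channel HVCN1 from 65.1 to 9.77 CPM (-2.61), the ribosomal protein paralogue RPL22L1 from 209 to 34.8 CPM (-2.55), the kinase PAK3 from 207 to 36.1 CPM (-2.48) and NAMPT, the rate-limiting enzyme of NAD salvage, from 1547 to 283 CPM (-2.44). MCTP1 (-2.65) and SPTLC3 (-2.50) were also among the 12 largest falls. The nucleolar protein NPM1 fell from 3345 to 1173 CPM (-1.51), whereas MYC was not called (adjusted p = 0.598), though it was called higher by library total (0.41, adjusted p = 0.0319). None of these genes was silenced: each kept at least 1 CPM in the treated libraries.

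Secreted factors and signalling genes were more often called higher than all tested genes, of which 40.4% were called higher and 28.8% lower. Of 25 inflammatory genes, 17 were higher and 5 lower (median 1.09), among them ICAM1, given above, the growth factor AREG (11.2 to 113 CPM, 3.29), the chemokine CCL20 (3.27) and the cytokine IL11 (2.93). TGF-beta and BMP genes were 21 higher and 5 lower of 28 (median 0.78), with LTBP2 (3.04) and BMP2 (2.33) among them. WNT genes were 24 higher and 2 lower of 35 (median 0.49). Among them 5 passed the read filter through the treated libraries alone, and of the other 30, 19 were higher and 2 lower. The ligand WNT7B (2.96) and the inhibitor DKK1 (8.90 to 71.1 CPM, 2.87) rose, and the WNT enhancer RSPO3 fell from 31.6 to 5.73 CPM (-2.25). Growth factors and their receptors were 19 higher and 3 lower of 26, with TGFA (3.42) and FGFR3 (2.42) ahead. Lists with fewer higher calls were ERK feedback (8 higher and 7 lower of 26), polycomb and histone modifiers (9 and 9 of 27), ABC transporters (5 and 2 of 15) and the MYC network (5 and 7 of 20). Their shares of higher calls were below the 40.4% of all genes.

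The same treatment was given to the resistant populations 1 and 2, and the difference of responses, the mean of both resistant responses minus the parental one, was tested in a limma fit of all 18 libraries over 19526 genes. In that fit the treated values of the resistant libraries rest on the restoration of decimal points alone, without the further checks made on the parental ones. The difference was called positive in 4094 genes (21%) and negative in 6106 (31.3%). In the same fit, 1717 genes (8.79%) were called at least 2-fold higher in parental cells, against 336 (1.72%) in resistant 1 and 201 (1.03%) in resistant 2. At least 2-fold lower were 619 (3.17%) in parental, 76 (0.389%) in resistant 1 and 81 (0.415%) in resistant 2. Counts of changes of that size were thus lower in both resistant populations, and the counts were not tested against each other. Of the genes of this fit, 1653 were at least 2-fold higher in the parental comparison of 6 libraries, with a median of 1.52 there. In the fit of 18 libraries their medians were 0.43 in resistant 1 and 0.22 in resistant 2. The 713 that were at least 2-fold lower had a median of -1.22 in the parental comparison. Their medians in the fit of 18 were -0.30 in resistant 1 and -0.23 in resistant 2. These genes were chosen on the parental libraries, so the parental medians are a description.

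Single genes, chosen with their values known, are given for the 3 populations. CDKN1A changed by 3.45 in parental, -0.21 in resistant 1 and -0.41 in resistant 2 (difference -3.76, adjusted p = 2.74e-12), and MDM2 by 3.03, 0.74 and 0.32 (difference -2.50). Of the retinoid genes, DHRS3 changed by 3.07, 3.63 and 2.50 (difference -0.01, adjusted p = 0.963) and RARB by 1.31, 1.56 and 0.81 (difference -0.13, adjusted p = 0.518), neither difference called, while those of 3 others were: TGM2 changed by 4.84, 3.95 and 2.77 (difference -1.48, adjusted p = 0.000134), STRA6 by 4.68, 2.53 and 3.72 (difference -1.56) and ICAM1 by 3.63, 3.45 and 1.93 (difference -0.94, adjusted p = 0.0169). A p that misses the threshold does not show that the responses were equal. SCD changed by -2.45, 0.05 and 0.48 (difference 2.72) and PSAT1 by -2.30, -0.08 and -0.22 (difference 2.16). TRIM43B changed by 7.66, 0.24 and 0.01 (difference -7.53). MAGEA4 changed by 5.52, -0.43 and 3.68 (difference -3.89), with resistant 2 nearer to parental than resistant 1, and the 2 resistant populations were not tested against each other. VIM fell in all 3, by values of -1.76, -1.27 and -0.94 (difference 0.66, adjusted p = 0.000223). CYP26A1 and many germline and cleavage-stage genes have no value in this fit, because their treated reads could not be restored in all 9 treated libraries.

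**Figure D5:**
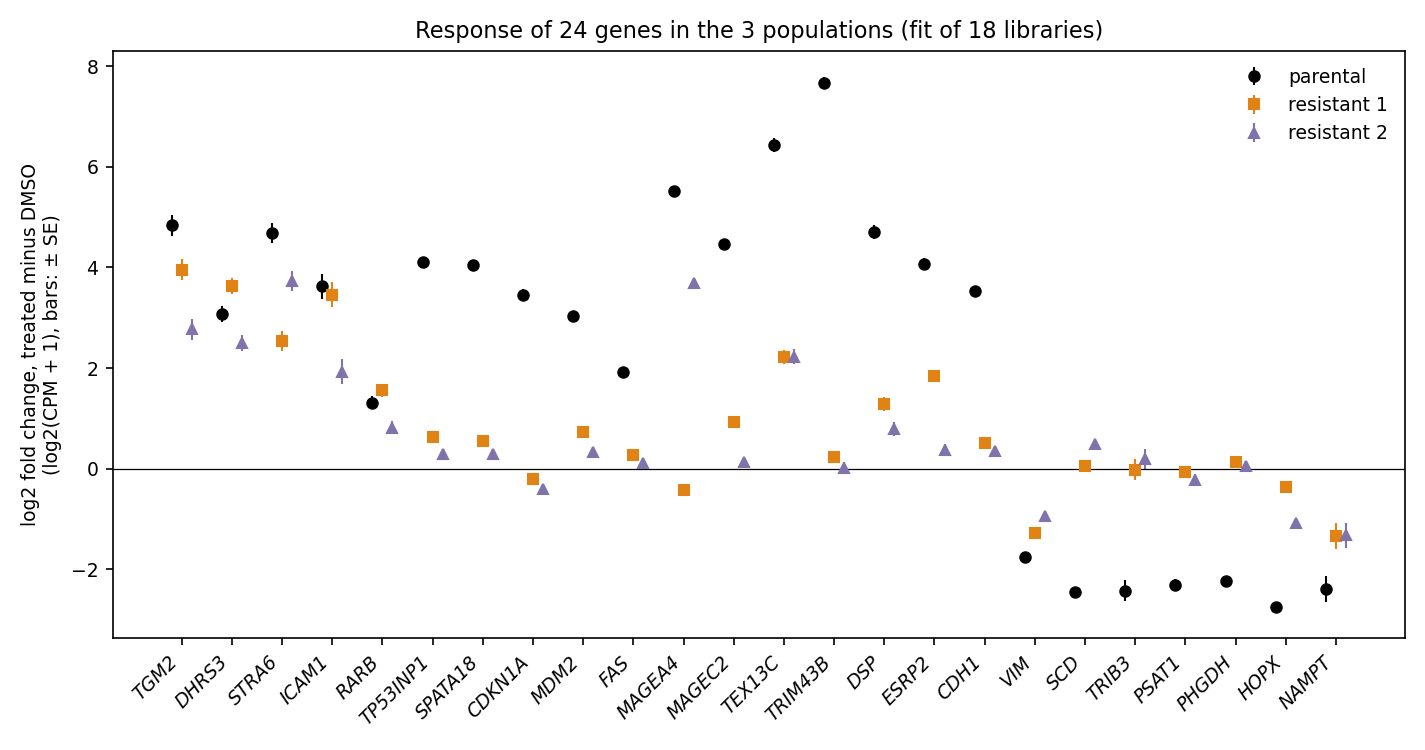
Log2 response to treatment (treated minus DMSO, log2(CPM + 1) scale, ± SE) of 24 genes in parental, resistant 1 and resistant 2 cells, from the fit of 18 libraries. CDKN1A is at 3.45 in parental and near or below 0 in both resistant populations, while DHRS3 is between 2.50 and 3.63 in all.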

How the data were processed

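Per the labels' protocols, RNA was purified on RNeasy columns with a DNase step, and libraries were stranded TruSeq mRNA libraries. Per the submitters' processing notes, reads were handled with FastQC, MultiQC, STAR, featureCounts and DESeq2 on GRCh38 (hg38). Tool versions, and whether counting used the strand, are not stated in the sources available here, so reads of overlapping antisense genes may be mixed. The authors deposited separately normalized tables for DMSO and for the drugs, with 58051 genes and 9 libraries each. In the deposited DMSO table the values are a normalized signal (counts divided by size factors), from which whole reads were recovered to within 0.01. The deposited treated table holds another unit, in which values from 1 upward had lost their decimal points. Per gene, the powers of 10 that give whole reads were listed for the 3 treated parental libraries. Among these, a negative binomial model of replicate counts chose the most probable set (posterior at least 0.99). The model took its spread from the parental DMSO libraries. Agreement of the treated replicates to within a power of 10 was thus a criterion of the choice. Further checks against the other treated libraries and the DMSO level were added after seeing the data. Of 24417 genes at the filter, 22816 (93.4%) were tested, from 82.1% at means of 10 to 30 reads to 98.9% from 1000 reads. On DMSO values stripped of decimal points, 21 of 17442 resolved genes had a wrong value. The model had taken its spread from these same libraries, and the trial ran without the further checks. It therefore does not give the error rate of the treated libraries. The posteriors imply about 36.1 wrong genes among those tested.

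Reads were scaled by TMM (edgeR 4.0.16) and log2(CPM + 1) was fitted with limma 3.58.1, with a trend, under R 4.3.3; p-values were adjusted by Benjamini-Hochberg over all genes tested; DESeq2 1.42.0 was run as an alternative. The design had assumed whole reads in both tables. The test was checked on simulated data. No library repeats another, since replicates differed beyond sampling noise. Of the identifiers, 57447 have a symbol and a place in GENCODE 29, and 12387 of 15539 tested protein-coding genes have a RefSeq promoter window. Genes were named as the 12 largest called changes in each direction among protein-coding genes without overlap, up to 4 called members per list, and genes fixed by name; other genes were picked with their values known. The members and lists were chosen with earlier results of these data known.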

Additional observations from a re-analysis of the deposited data

Results flagged for a closer look

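The response to treatment differed between the resistant populations and parental cells, by the limma test of the difference itself (resistant mean minus parental), negatively in 6106 genes and positively in 4094. Among the 12 largest rises of parental cells, those with a tested difference were TRIM43B (-7.53), TEX13C (-4.21) and GPX2 (-3.70). Among the 12 largest falls, the difference on the log2 scale was 3.15 for HVCN1, 2.72 for SCD, 2.51 for TRIB3, 2.27 for HPGDS, 2.16 for PSAT1, 2.03 for HOPX, 1.99 for both MCTP1 and PYCR1, 1.79 for RPL22L1, 1.42 for PAK3, 1.05 for NAMPT and 0.79 for SPTLC3. The genes were chosen for their size in the parental libraries, which also enter the difference, so its direction in them is a description.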

How the results depend on the processing

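Of 189 named genes that were called, 183 kept their direction and their call under every alternative that gave a value. The stricter posterior for the restored values gave a value for only 17 of the 201 named genes, so it hardly tested them. The other 6, each of which lost its call under at least 1 alternative, were UHRF1, DNMT1, DCK, SLC29A1, IFIT1 and B2M. The counts of at least 2-fold calls moved with the scale of the fold: 6222 higher and 1434 lower with DESeq2 on reads, 6372 and 1379 with edgeR, 4040 higher at a pseudocount of 0.25 CPM and 935 at 4 CPM. Scaling by library total gave 3524 lower calls, 291 of them at least 2-fold, and turned DNMT1 (0.003), DCK (0.033), MKI67 (0.26) and CCNB1 (0.24) to the higher side. A stricter posterior for the restored values left 5206 genes, with 2324 higher and 1265 lower calls, 1333 and 193 at least 2-fold. Leaving out each replicate in turn gave 5752 to 9160 higher and 4750 to 7125 lower calls, 1705 to 2246 and 570 to 872 at least 2-fold, and 8512 to 10124 genes with a difference of responses in place of 10200. The low ends of the first 2 ranges came without a treated library, with 19247 to 19281 genes tested. Deviations of same-numbered libraries correlated with mixed sign (0.45, -0.26 and 0.31), and not every library correlated best with its own number. The numbers were therefore not taken as pairs, though these values do not exclude a pairing. A fit with the replicate number as a block called 9338 higher and 6700 lower, with 2205 and 758 at least 2-fold, and also called RXRA (adjusted p = 0.0494) and E2F1 (0.019). Restoration without the checks added after seeing the data gave 9595 and 6840. Genes of few reads are under-represented, since fewer of them could be restored.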
